A study of Mus musculus with 6 samples.

Results

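Germline and meiosis genes were followed as a module of 36 genes out of the 35976 gene symbols of the count table, and all 36 had a row. The members are genes whose products work in developing germ cells: RNA-binding proteins and chromatin regulators, the piRNA pathway, the synaptonemal complex, meiotic cohesin and testis paralogues of housekeeping genes. The rule is a list of gene symbols with no threshold on their values, although earlier results of these data were known when it was drawn up. The study sequenced polyadenylated RNA of mouse chondrocytes (C57BL/6 x 129S4/SvJae) from the hind limb articular cartilage of embryos at day 18.5, after 16 population doublings on tissue culture plastic. All cells received doxycycline at 2 µg/ml during expansion, which induced an H3.3 transgene. In the H3K9M group (replicates 1, 3 and 5) the transgene carried methionine at lysine 9 and H3K9 methylation was labelled as suppressed, and in the control group, H3WT (replicates 1, 2 and 4), it was wild-type H3.3. The promoter that drives the transgene and the number of embryos behind a library are not given in the sources used here, so p-values measure the spread between these libraries, which may be partly technical.

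In somatic cells most germline genes are kept silent. Their promoters often lie in CpG islands that carry DNA methylation, and silencing also draws on H3K9 methyltransferases (G9a, GLP and SETDB1) and on a Polycomb complex that contains E2F6, MGA and MAX. In germ cells these genes serve the repression of transposons by piRNAs, the pairing of homologous chromosomes and the translation of stored messages. The comparison asks whether their transcript levels changed when H3K9 methylation was suppressed in these cultures.

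Promoters of the members were rich in CpG, the dinucleotide at which DNA is methylated. RefSeq (GRCm38.p6) promoter windows were found for 31 members. In the 250 bases before the start, these held a median of 16 CpG (range 5 to 40), against 10 over 17491 protein-coding genes and 6 over all 27025 genes of the promoter table. The E-box CACGTG, to which MYC-like and MGA-MAX dimers can bind, lay in 14 of the 31 windows (45.2%), against 6.64% of protein-coding genes. The motif TCCCGC, on either strand, is the core of E2F sites and lay in 13 windows (41.9%), against 21.6%. The motifs were searched separately, and a match is no evidence of binding. The stretches of 150 bases before the start are shown for 2 members with reads in every library, Syce2 and Tdrkh, and for 4 that were at 0 in every library, Hormad1, Sycp1, Asz1 and Tex101, because both kinds carry CpG. Sequences run 5′ to 3′ on the gene's strand and capitals mark CpG.
Syce2: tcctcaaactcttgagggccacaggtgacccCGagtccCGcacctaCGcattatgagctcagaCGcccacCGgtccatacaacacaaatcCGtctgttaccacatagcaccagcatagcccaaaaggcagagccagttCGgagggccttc
Tdrkh: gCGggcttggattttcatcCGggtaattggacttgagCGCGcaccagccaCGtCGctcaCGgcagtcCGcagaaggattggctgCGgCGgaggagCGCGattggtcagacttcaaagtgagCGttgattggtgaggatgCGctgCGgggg
Hormad1: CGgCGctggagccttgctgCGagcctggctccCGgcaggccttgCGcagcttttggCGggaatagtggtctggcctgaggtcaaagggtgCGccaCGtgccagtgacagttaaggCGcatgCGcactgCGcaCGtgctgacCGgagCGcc
Sycp1: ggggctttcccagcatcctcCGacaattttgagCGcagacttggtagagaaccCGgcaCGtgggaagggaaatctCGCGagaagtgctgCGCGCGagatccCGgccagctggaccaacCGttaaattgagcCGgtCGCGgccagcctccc
Asz1: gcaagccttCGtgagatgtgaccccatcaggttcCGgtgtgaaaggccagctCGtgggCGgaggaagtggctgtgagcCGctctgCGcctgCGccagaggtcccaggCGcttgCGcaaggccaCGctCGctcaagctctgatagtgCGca
Tex101: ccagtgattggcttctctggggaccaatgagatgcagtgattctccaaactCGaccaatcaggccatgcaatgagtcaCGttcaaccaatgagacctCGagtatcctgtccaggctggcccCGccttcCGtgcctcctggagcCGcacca
The Syce2 stretch (chr8:84871961-84872110, plus strand) held 7 CpG and 1 TCCCGC motif, and the Tdrkh stretch (chr3:94413094-94413243, plus strand) 15. Among the genes at 0, Hormad1 (chr3:95559527-95559676, plus strand) held 14 CpG, 2 E-boxes and 1 TCCCGC motif. Sycp1 (chr3:102936101-102936250, minus strand) held 14 CpG and 1 E-box, Asz1 (chr6:18109062-18109211, minus strand) 12 CpG and Tex101 (chr7:24672051-24672200, minus strand) 6.

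Most of the module was silent or nearly so in both groups. Of the 36 members, 15 had no read in any library, 15 had a few reads but stayed below the filter on low counts, and 6 passed it: Tdrkh, Tex15, Syce2, Brdt, Stag3 and Ddx4. Total counts per library ran from 15113675 to 19606082, so a gene at 0 could still be present at up to 3 reads, which is 0.145 to 0.201 CPM (TMM-normalized counts scaled to the library total) depending on the library. In each library the 36 members together took 292 to 355 reads, or 0.00155% to 0.00206% of the total. Their summed level averaged 17.7 ± 2.81 CPM over the H3K9M libraries and 18.3 ± 1.44 over the H3WT libraries (SD, n = 3), a log2 ratio of -0.05. That difference is smaller than the spread between replicates (pooled SD of the log2 sums 0.18), and its sign turned under several alternatives. For comparison, 15982 of all 35976 genes (44.4%) were at 0 in every library, so the share of members at 0 was near that of the whole table. Of all genes, 13761 passed the filter.

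**Figure D1:**
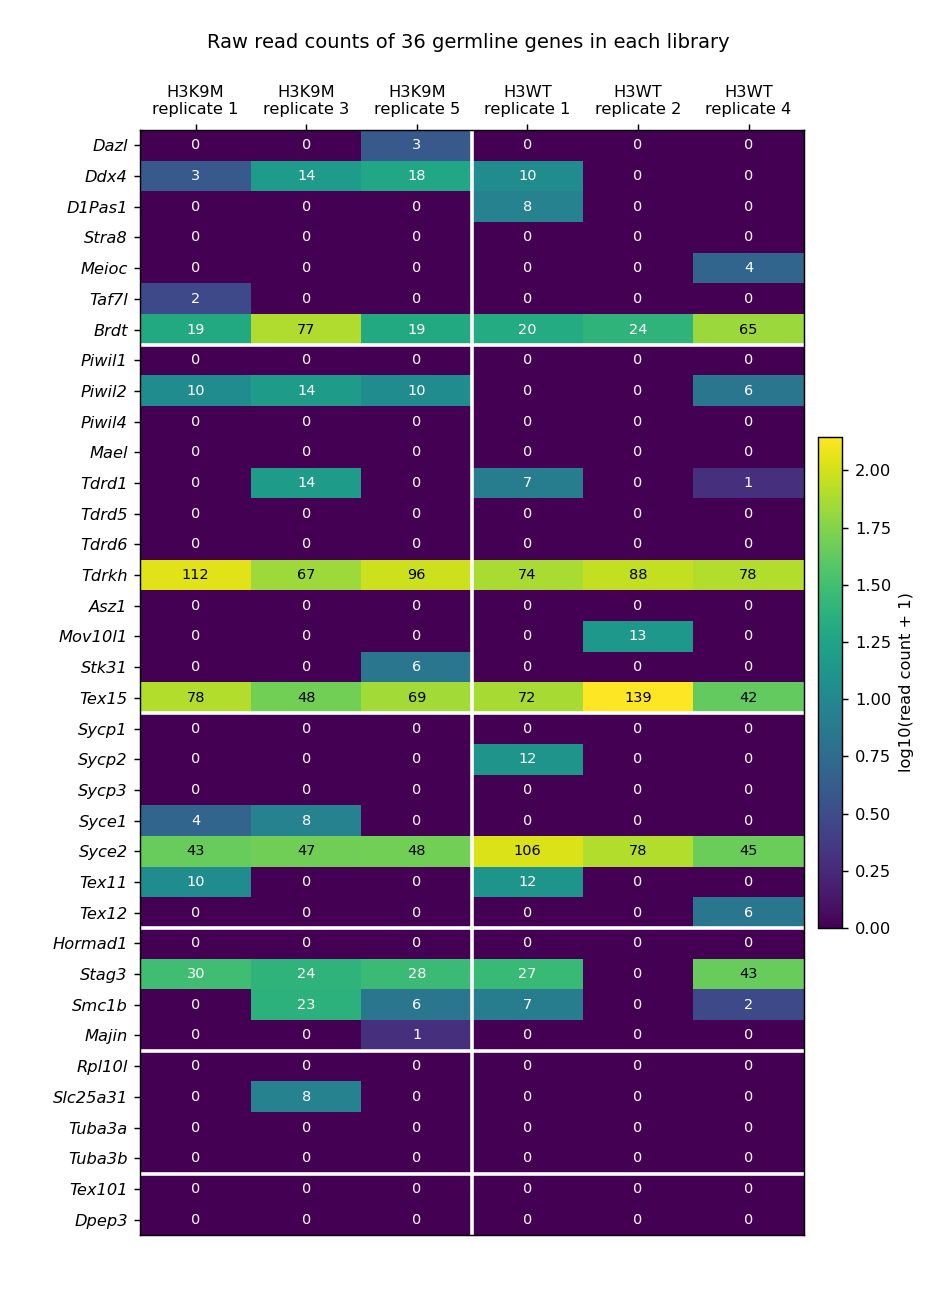
Raw read counts of the 36 members (rows, grouped by role) in the 6 libraries (columns); colour gives log10(read count + 1). Tdrkh, Tex15, Syce2 and Brdt were counted in every library and 15 members in none.

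No member passed the test between the groups. Of the 6 members tested, 0 had an adjusted p under 0.05 (quasi-likelihood test of edgeR, Benjamini-Hochberg over 13761 genes), as did 0% of all genes tested. At an unadjusted p under 0.05 there were also 0 members, against 12.2% of all genes, and in 0 of the 6 did the groups separate without overlap, against 19.4%. DESeq2, which called 367 of 15154 genes, and limma-voom, which called 0, both called 0 members. When every gene with at least 1 count was tested, 21 members entered and 0 passed at either threshold, against 0.18% of genes with an adjusted p and 9.14% with an unadjusted p under 0.05.

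Among the regulators of germ cell transcription and RNA, Brdt and Ddx4 were tested. Brdt (chr5:107331159-107387058, plus strand) encodes a testis bromodomain protein that reads acetylated histones. It was counted 19, 77 and 19 times with H3K9M (replicates 1, 3 and 5, the order used throughout) and 20, 24 and 65 times with H3WT (replicates 1, 2 and 4). One library of each group was high, H3K9M replicate 3 and H3WT replicate 4, and the others lay together. The means were 1.99 ± 1.51 and 2.07 ± 1.53 CPM (SD, n = 3), giving a log2 fold change of -0.05 (95% interval -1.87 to 1.78, adjusted p 0.988, edgeR). Its sign turned in 5 of 12 alternatives.

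Ddx4 (chr13:112598333-112652475, minus strand), the germ cell RNA helicase also called Vasa, had 3, 14 and 18 reads in the H3K9M libraries and 10, 0 and 0 in the H3WT libraries. All H3K9M libraries held reads, while the H3WT reads came from replicate 1 alone, so the groups overlapped. The means were 0.599 ± 0.365 and 0.187 ± 0.324 CPM (SD, n = 3), with a log2 fold change of 1.66 (95% interval -2.01 to 5.32, adjusted p 0.722, edgeR). Without H3WT replicate 1 the remaining H3WT libraries are at 0, and Ddx4 passes the filter through the H3K9M libraries alone. The unadjusted p of that fit (0.0374, adjusted p 0.539, edgeR) compares reads with none and is no support for a difference.

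The other 5 regulators were almost unread. Dazl, an RNA-binding protein needed for germ cell development, had 3 reads in H3K9M replicate 5 and none elsewhere. Taf7l, a testis paralogue of a TFIID subunit, had 2 reads in H3K9M replicate 1. Meioc, which holds cells in the meiotic programme, had 4 reads in H3WT replicate 4, and D1Pas1, an autosomal testis helicase related to Ddx3x, had 8 in H3WT replicate 1. Stra8, the retinoic acid-induced gate to meiosis, had 0 reads in every library.

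**Figure D2:**
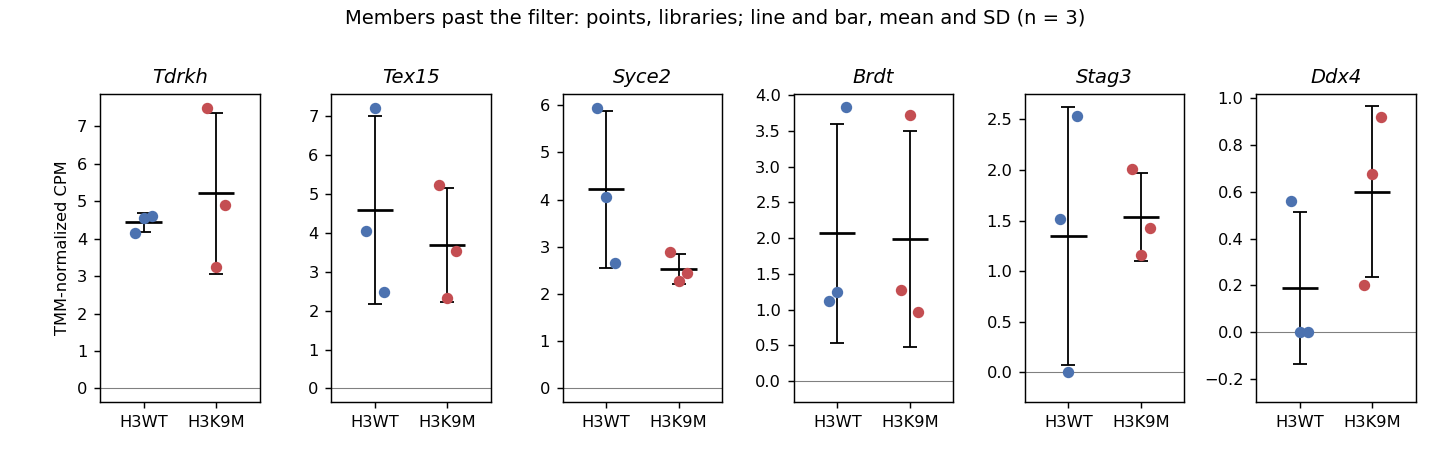
TMM-normalized CPM of the 6 members past the filter in each library (points), with mean and SD (n = 3 per group); each panel has its own linear axis. The groups overlapped for every gene, and Brdt had 1 high library in each group.

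Of the 12 piRNA pathway members, 2 were tested. Tdrkh (chr3:94413273-94434668, plus strand), a Tudor-domain protein of the mitochondrial surface that takes part in piRNA trimming, was the most counted member. It had 112, 67 and 96 reads in the H3K9M libraries and 74, 88 and 78 in the H3WT libraries. The H3WT values were close together and lay within the H3K9M range. The means were 5.21 ± 2.15 and 4.44 ± 0.246 CPM (SD, n = 3), a log2 fold change of 0.23 (95% interval -0.70 to 1.16, adjusted p 0.871, edgeR). Without H3K9M replicate 1 it was -0.12. In GENCODE M21, 36.7% of the exonic bases of Tdrkh overlap exons of Oaz3 on the opposite strand. Oaz3 was listed at 0 reads, and the strand setting of the counting is not given.

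Tex15 (chr8:33516738-33585582, plus strand), required for meiotic recombination and for piRNA-directed silencing, had 78, 48 and 69 reads in the H3K9M libraries and 72, 139 and 42 in the H3WT libraries. H3WT replicate 2 was the highest of all and H3WT replicate 4 the lowest in reads. The means were 3.69 ± 1.46 and 4.58 ± 2.41 CPM (SD, n = 3), a log2 fold change of -0.32 (95% interval -1.52 to 0.89, adjusted p 0.859, edgeR). Without H3WT replicate 2 it was 0.18.

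Piwil2, a PIWI protein that binds piRNAs, was the one member with a count whose groups did not overlap. It had 10, 14 and 10 reads in the H3K9M libraries and 0, 0 and 6 in the H3WT libraries. All H3K9M libraries (0.510 to 0.676 CPM) lay above H3WT replicate 4 (0.354 CPM), the H3WT library that held reads. It fell short of the filter on low counts. In the fit over every gene with a count, its unadjusted p was 0.264 and its adjusted p 0.658 (edgeR). Without H3WT replicate 4 the remaining H3WT libraries are at 0, and Piwil2 passes the filter through the H3K9M libraries alone. The unadjusted p of that fit (0.0271, adjusted p 0.524, edgeR) compares reads with none and is no support for a difference. Of the 15 members below the filter this was 1 that separated without overlap, while 4.88% of all 6233 such genes did.

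The other piRNA members had few reads or none. Tdrd1, a Tudor scaffold of germ granules, had 14 reads in H3K9M replicate 3, with 7 and 1 in replicates 1 and 4 of H3WT. The helicase gene Mov10l1 had 13 reads in H3WT replicate 2, and Stk31 had 6 in H3K9M replicate 5. Piwil1, Piwil4, Mael, Tdrd5, Tdrd6 and Asz1 had 0 reads in all 6 libraries.

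In the synaptonemal complex, which zips paired chromosomes together, Syce2 (chr8:84872111-84888221, plus strand) was the one tested member. This central element gene had 43, 47 and 48 reads in the H3K9M libraries and 106, 78 and 45 in the H3WT libraries. The H3K9M libraries lay together, H3WT replicates 1 and 2 lay above them, and H3WT replicate 4 fell among them. The means were 2.53 ± 0.314 and 4.22 ± 1.66 CPM (SD, n = 3). The log2 fold change was -0.74 (95% interval -1.80 to 0.33, adjusted p 0.556, edgeR), the smallest p among the tested members. Its sign was the same in all 12 alternatives, which spanned -0.98 to -0.40, and none passed.

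The lateral and transverse filament genes were silent or in 1 library. Sycp1 and Sycp3 had 0 reads in every library and Sycp2 had 12 in H3WT replicate 1. Sycp3 shares 52.2% of its exonic bases with exons of Chpt1 on the opposite strand, and Chpt1 had 2703 reads. Syce1, another central element gene, had 4 and 8 reads in H3K9M replicates 1 and 3 and none in H3WT. Tex12, also a central element gene, had 6 reads in H3WT replicate 4. Tex11, an X-linked crossover gene, had 10 reads in H3K9M replicate 1 and 12 in H3WT replicate 1.

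Meiotic cohesin holds sister chromatids together through the first division. Its subunit gene Stag3 (chr5:138280240-138312393, plus strand) had 30, 24 and 28 reads in the H3K9M libraries and 27, 0 and 43 in the H3WT libraries. H3WT replicate 2 stood apart with no read, and the other 5 libraries lay between 24 and 43. The means were 1.53 ± 0.434 and 1.35 ± 1.27 CPM (SD, n = 3), with a log2 fold change of 0.18 (95% interval -2.64 to 3.01, adjusted p 0.971, edgeR). Without H3WT replicate 2 it was -0.39. Smc1b, the meiotic SMC subunit, was below the filter with 0, 23 and 6 reads in H3K9M and 7, 0 and 2 in H3WT. Majin, which tethers telomeres to the nuclear envelope, had 1 read in H3K9M replicate 5, and the axis gene Hormad1 had none.

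The testis paralogues and surface proteins were almost absent. Slc25a31, the testis ADP/ATP carrier, had 8 reads in H3K9M replicate 3. Rpl10l, which encodes a testis ribosomal protein, and the tubulin genes Tuba3a and Tuba3b had 0 reads. The Tuba3a and Tuba3b transcripts are 96.5% identical over 1447 bases, and those of Rpl10l, Hormad1, Majin and Sycp1 are at least 90% identical to a pseudogene transcript over 200 bases or more. How reads with several matches were counted is not given, so the counts of these genes are uncertain. Tex101 and Dpep3, surface proteins of germ cells, had 0 reads.

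**Figure D3:**
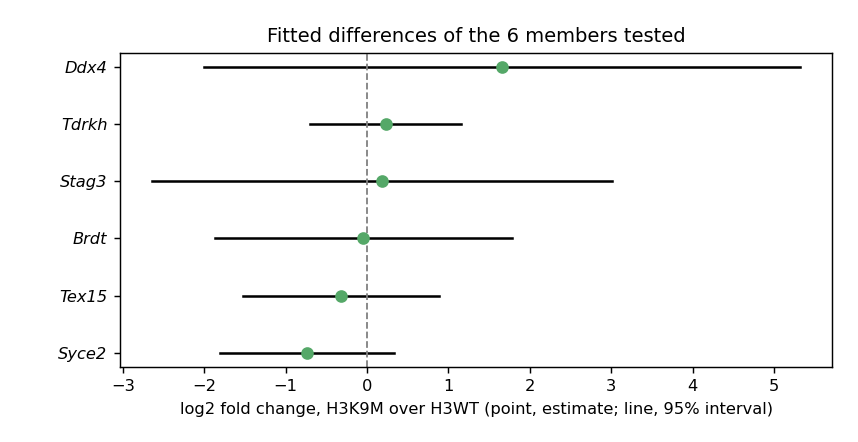
Fitted log2 fold change (H3K9M over H3WT) of the 6 tested members, with 95% intervals. Every interval crosses 0, and the narrowest, that of Tdrkh, runs from -0.70 to 1.16.

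Scaled to exonic length, Syce2 was the most abundant member, at 1.29 ± 0.159 CPM per kilobase in H3K9M and 2.14 ± 0.842 in H3WT (SD, n = 3). Tdrkh followed with 0.849 ± 0.35 and 0.723 ± 0.0402. Its length includes the 36.7% of exonic bases that overlap Oaz3. Whether reads there were counted is not known, so the order of Syce2 and Tdrkh is uncertain. Tex15 (0.383 ± 0.152 and 0.476 ± 0.251) and Brdt (0.389 ± 0.295 and 0.404 ± 0.299) did not differ from each other beyond their spread, and Stag3 (0.267 ± 0.0758 and 0.235 ± 0.222) overlapped both. Ddx4 was lowest of the 6, at 0.199 ± 0.121 and 0.0621 ± 0.108 CPM per kilobase.

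The 15 members with reads below the filter totalled 197 reads over 6 libraries. Of these, 6 had reads in H3K9M libraries only (40%) and 5 in H3WT libraries only (33.3%), against 34.7% and 18.7% of the 6233 genes below the filter. In the fit over every gene with a count their unadjusted p ran from 0.0953 (Syce1) to 0.992 (Tex11), with adjusted p from 0.612 to 0.998 (edgeR). The members read in a single library were 10, with 1 to 13 reads in total. That range was taken from these members, so their share of the 11 members within it was partly fixed in advance. Of all 3718 genes in the range, 65.9% had their reads in 1 library. Summed over the members below the filter, the level averaged 2.10 ± 1.00 CPM over the H3K9M libraries and 1.46 ± 0.998 over the H3WT libraries (SD, n = 3), a difference smaller than the spread.

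The number of members with a read was lowest in 1 library, H3WT replicate 2. It was 10, 11 and 11 in the H3K9M libraries and 11, 5 and 10 in the H3WT libraries. H3WT replicate 2 also had the fewest genes with a read (14660, against 15600 to 16698 in the others). H3K9M replicate 3 had the most reads of members below the filter (67). It also had the most reads of olfactory and vomeronasal receptor genes, families expressed mainly in sensory tissue (139 reads, against 7 to 86 in the others). These fell on 12 of 1454 genes, and H3K9M replicate 5 also had reads of 12. All 16 chondrocyte markers had reads, 14 of them lower in H3K9M and 0 past an adjusted p of 0.05 (edgeR; 1 higher and 2 lower at an unadjusted p under 0.05), with a summed level of 7580 to 11800 CPM in H3K9M and 7450 to 19900 CPM in H3WT. Skeletal muscle markers summed to 26.9 to 233 CPM in H3K9M and 13.2 to 32 CPM in H3WT. Of 5 tested, 4 were higher at an unadjusted p under 0.05 and 0 passed an adjusted p of 0.05 (edgeR). Over all genes tested, 12.2% had an unadjusted p under 0.05 in either direction (edgeR). The muscle regulator Myod1 had 291, 1179 and 84 reads in H3K9M and 0, 20 and 0 in H3WT, groups that did not overlap. Its log2 fold change was 6.20 (adjusted p 0.244, edgeR), which did not pass. Macrophage and blood markers summed to 11.6 to 23.4 CPM in H3K9M and 6.01 to 13.5 CPM in H3WT. Cd14 (539 reads) and Cd68 (507) were the most counted, and Ptprc and Adgre1 were at 0. All 4 tested were higher in H3K9M, with 0 at an unadjusted p under 0.05 (edgeR). Endothelial markers summed to at most 2.28 CPM in any library. Vwf (73 reads) and Tek (44) were the most counted, and Cdh5 and Tie1 were at 0. The part of these in the low counts was not tested. Every library held reads of Xist and of the Y-linked genes Ddx3y, Kdm5d, Uty and Eif2s3y.

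**Figure D4:**
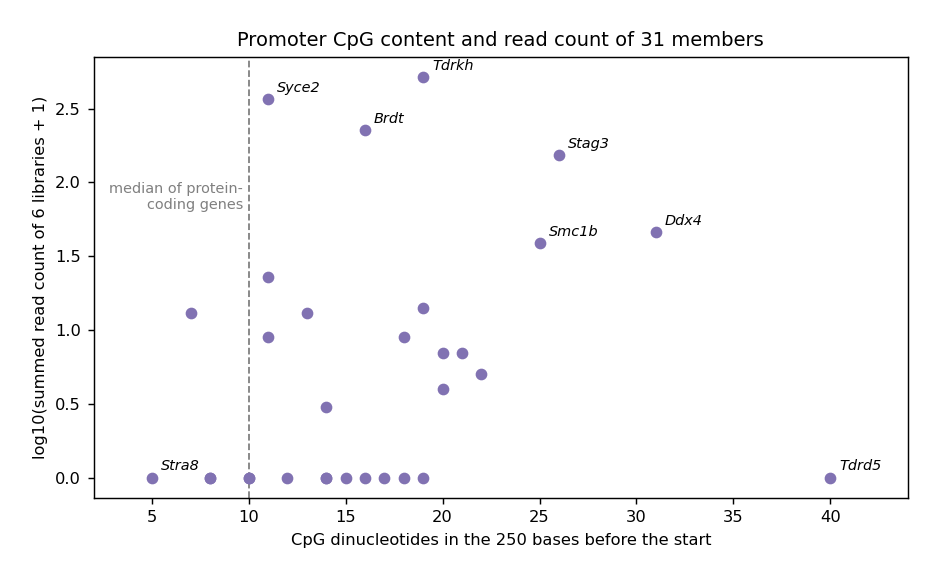
CpG dinucleotides in the 250 bases before the start (x axis) against the summed read count of the 6 libraries as log10(count + 1) (y axis) for the 31 members with a RefSeq promoter; the dashed line is the median of protein-coding genes (10). Members at 0 spanned 5 (Stra8) to 40 (Tdrd5) CpG.

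Promoter CpG was compared with the read counts as a description. Among members with a promoter window, the 17 with at least 1 read had a median of 19 CpG (range 7 to 31) and the 14 at 0 had a median of 14 (range 5 to 40). Of the most counted members, Tdrkh had 19 CpG, Syce2 11 and Brdt 16, and of the silent ones Tdrd5 had 40 and Stra8 5, so the ranges overlapped. These values are for the first window listed per gene, and other windows differed in both directions. The second window of Syce2 held 24 CpG and 1 E-box, and that of the silent Piwil4 held 0 CpG against 10 in its first. The E-box lay in 9 of the 17 (52.9%) and 5 of the 14 (35.7%), and TCCCGC in 6 (35.3%) and 7 (50%).

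Defining genes of germ cells were also at or near 0. Of 17 genes of germ cell specification and pluripotency, 10 had no read, among them Pou5f1, Nanos2 and Dmrt1, and 0 passed the filter. The most counted were Nanog (37 reads in all) and Dnd1 (36). Of 19 spermatid genes, 13 had no read, among them the protamine genes Prm1 and Prm2 and the transition protein genes Tnp1 and Tnp2. The 2 most counted were Odf2 (10603 reads; log2 fold change -0.33, unadjusted p 0.0427, adjusted p 0.393, edgeR), which also serves centrosomes of somatic cells, and the heat shock gene Hspa2 (2241 reads). Of 11 oocyte genes, 8 had no read, among them Zp3 and Nobox. Ooep, an oocyte cytoplasmic protein gene, was the exception, with 117, 102 and 119 reads in H3K9M and 17, 50 and 16 in H3WT. The Ooep values did not overlap between the groups, with a log2 fold change of 2.06 (SE 0.54, unadjusted p 0.00487, adjusted p 0.236, edgeR), which did not pass. Gdf9 followed with 39 reads. Of 12 gonadal somatic markers, 5 had no read, among them Nr5a1 and Wt1, and the most counted were Inhbb (2210 reads) and Dhh (71).

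Most other genes of the piRNA and meiotic machinery were also below the filter. Of 12 further piRNA genes 2 were tested, with 0 past an adjusted p of 0.05. Tdrd7, a Tudor gene that is also active in the lens, averaged 54.5 ± 9.61 CPM over the H3K9M libraries and 39.8 ± 6.11 over the H3WT libraries (SD, n = 3; log2 fold change 0.45, adjusted p 0.382, edgeR). Its groups did not overlap, and its unadjusted p was 0.0371 in the edgeR fit. Tdrd9, a piRNA helicase gene, had 10, 130 and 0 reads in the H3K9M replicates 1, 3 and 5 and 0 in every H3WT library, so nearly all its reads came from replicate 3. Ddx25, a testis RNA helicase gene, had 16, 12 and 4 reads with H3K9M, Tdrd12 had 5, 5 and 5, and both had 0 in every H3WT library. These 3 genes were below the filter, and in the fit over every gene with a count their adjusted p was 0.463 for Tdrd9, 0.429 for Ddx25 and 0.587 for Tdrd12 (edgeR; unadjusted p 0.0303, 0.0239 and 0.0686). Of 23 further meiotic genes, 7 had no read and 6 were tested, 3 higher and 3 lower in H3K9M, with 0 at an unadjusted p under 0.05 in the edgeR fit. Ythdc2, an RNA helicase gene also expressed in somatic cells, had 1861 reads and Zcwpw1 had 566. Dmc1, the meiotic recombinase gene, was below the filter with 14, 4 and 4 reads in H3K9M and 0, 0 and 3 in H3WT, groups that did not overlap (adjusted p 0.658 in the fit over every gene with a count, edgeR). Other genes of these lists below the filter went the other way. Pld6 had 0 reads in H3K9M and 17 in H3WT, Sycp2l 2 and 23, and Msh4 1 and 9. Each of these had its H3WT reads in 1 library, replicate 4 for Pld6 and Msh4 and replicate 2 for Sycp2l. By contrast, Ddx25 and Tdrd12 were read in every H3K9M library. Of all 6233 genes with reads below the filter, 34.7% had them in H3K9M libraries only and 18.7% in H3WT libraries only. The groups did not overlap in 4.88% of them. Ddx25, Tdrd12, Max, Dmc1, Pld6, Sycp2l and Msh4 are named here after their values were seen.

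The parent genes of the testis paralogues were all expressed. In a list of 16 parents and somatic relatives, all 16 were tested, with a median log2 fold change of -0.04 (-0.003 over all genes) and 0 past an adjusted p of 0.05 (edgeR). Tuba1a (70738 reads) and Tuba1b (66234) were highest. Rpl10, relative of the silent Rpl10l, averaged 464 ± 48 CPM over the H3K9M libraries and 376 ± 25.8 over the H3WT libraries (SD, n = 3; log2 fold change 0.30, adjusted p 0.408, edgeR), with an unadjusted p of 0.0487 in the edgeR fit.

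The genes for known silencers of the germline programme were all expressed. All 24 were tested, 18 lower and 6 higher in H3K9M, with a median log2 fold change of -0.15 against -0.003 over all genes, and 0 passed an adjusted p of 0.05 (edgeR). At an unadjusted p under 0.05 were 4 of the 24, all lower in H3K9M, against 12.2% of all genes tested in either direction, so the count is near the background. Mga, the DNA-binding scaffold of the E2F6 complex, averaged 80.6 ± 8.19 CPM over the H3K9M libraries and 111.4 ± 3.44 over the H3WT libraries (SD, n = 3; log2 fold change -0.47, adjusted p 0.227, edgeR). Ehmt1, which encodes the H3K9 methyltransferase GLP, had 60.6 ± 4.83 and 83.9 ± 4.10 CPM (SD, n = 3; log2 fold change -0.47, adjusted p 0.227, edgeR). Ehmt2, which encodes its partner G9a, had 182.6 ± 3.67 and 230.4 ± 15.5 CPM (SD, n = 3; log2 fold change -0.34, adjusted p 0.299, edgeR). For these 3 genes the groups did not overlap. The same held for Max, the partner of MGA, which was counted higher in H3K9M (65.5 ± 7.22 against 53.9 ± 8.15 CPM, SD, n = 3; log2 fold change 0.28, adjusted p 0.503, edgeR). That makes 4 of 24 without overlap, against 19.4% of all genes tested. Uhrf1, which recruits the maintenance DNA methyltransferase, had 78.2 ± 14.6 and 112.9 ± 24.8 CPM (SD, n = 3; log2 fold change -0.53, adjusted p 0.364, edgeR), and its groups overlapped. Trim28, the most counted silencer with 29358 reads, had a log2 fold change of -0.23 (adjusted p 0.563, edgeR).

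**Figure D5:**
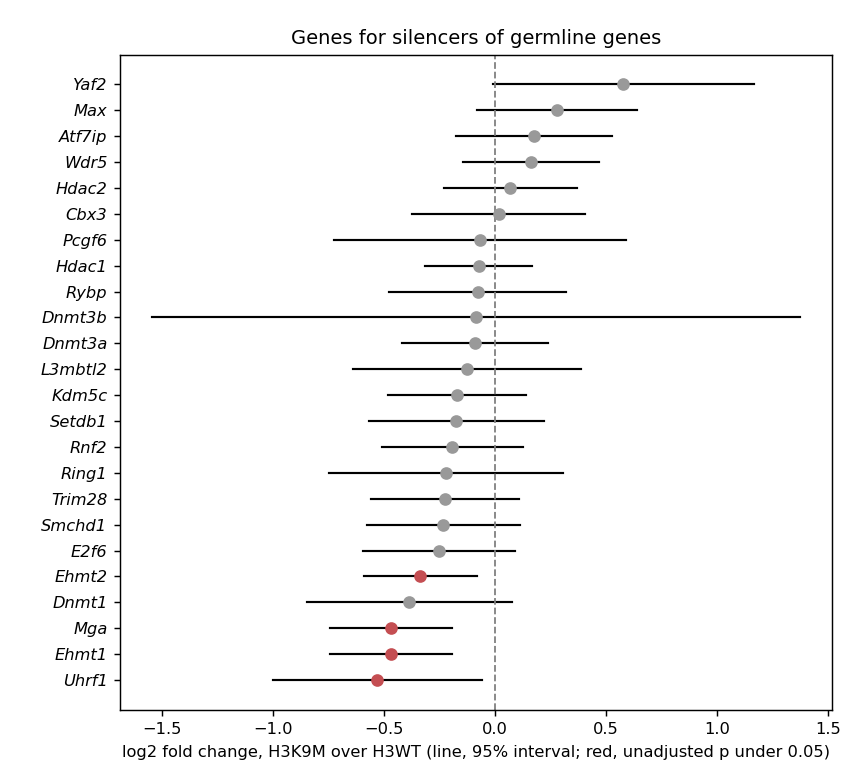
Log2 fold change (H3K9M over H3WT) with 95% intervals for 24 genes whose products silence germline genes; red points have an unadjusted p under 0.05. The red points are Ehmt2, Mga, Ehmt1 and Uhrf1, between -0.34 and -0.53, and no gene passed after adjustment over all genes.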

How the data were processed

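The deposited table gives whole-number counts of reads for each gene symbol in every library. Of the authors' processing, HISAT2, featureCounts, DESeq2 and the build mm10 are named, per the submitters' processing notes. Their versions, the annotation, strand and multi-mapping settings are not given in the sources used here. RNA was polyadenylated and libraries were made with a Tecan kit, per the labels' protocols. Each column matched 1 sample title.

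Counts were tested in R 4.3.3 with edgeR 4.0.16 (filterByExpr defaults, TMM, robust glmQLFit and glmQLFTest, 6 libraries, genotype the only term), adjusting p over 13761 genes at 0.05. The standard error is the log2 fold change divided by the root of F, and the 95% interval follows from it. An exact permutation test of 3 libraries against 3 cannot go below p = 0.1. Counting floors (3 reads) cover counting error only. Alternatives were DESeq2 1.42.0, limma-voom (limma 3.58.1), other scalings and filters, a threshold of 0.01 and leaving out each library. Members and lists were chosen with earlier results of these data known. All members are accounted for, and those past the filter or with at least 10 reads are given by library. Of each other list, the 2 most counted genes and those with an unadjusted p under 0.05 in this fit are named, except for cell type markers. In these lists, 4 symbols were matched by a RefSeq synonym. Locations and overlaps came from GENCODE M21 (GRCm38), similarity (at least 90% over 200 bases) from blastn. Promoters came from RefSeq GRCm38.p6, where 5 members had no entry, taking the first window listed per gene.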

Additional observations from a re-analysis of the deposited data

How the results depend on the processing

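The count of germline genes past the threshold was 0 in the reported fit and in all 13 alternatives, in which 4 to 21 of them could be tested. The count over all genes was 0 in the reported fit, 36 with every gene that had a count, 367 with the DESeq2 Wald test and 0 to 91 when a library was left out (91 without H3WT replicate 2, 2 without H3K9M replicate 3); the cause was not tested. It was 0 with limma-voom, both other scalings, at least 10 counts in every library and a threshold of 0.01.

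The log2 ratio of summed levels (-0.05) lay between -0.19 and 0.03 over the left-out libraries and was 0.004 with library size alone, -0.06 with DESeq2's size factors and -0.16 without Tdrkh. The value without H3K9M replicate 1 (-0.19) was the one larger in size than the replicate spread of 0.18. Single genes turned sign without passing. Brdt was 0.051 with library size alone, 0.024 with limma-voom, 0.19 without H3K9M replicate 1, 0.29 without H3K9M replicate 5 and 0.75 without H3WT replicate 4 (range -0.87 to 0.75 over left-out libraries). Tdrkh was -0.12 without H3K9M replicate 1 (range -0.12 to 0.49) and Tex15 0.18 without H3WT replicate 2 (range -0.65 to 0.18). Stag3 was -0.06 without H3K9M replicate 1 and -0.39 without H3WT replicate 2 (range -0.39 to 1.01). Ddx4 ran from 1.09 to 6.48 and Syce2 from -0.98 to -0.40. The 6.48 came without H3WT replicate 1, where the remaining H3WT libraries held no read of Ddx4. No paired analysis was possible because the groups share only replicate number 1. The 15 genes below the filter had at most 23 reads in a library. In the fit over every gene with a count, their standard errors ran from 2.01 (Majin) to 2.97 (Sycp2) on the log2 scale.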
